A study of Setaria viridis with 40 samples.

Results

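PsbS (Sevir.5G400800) is the nuclear gene for a small subunit of photosystem II (PSII), and its transcript was followed here in leaves of the C4 grass *Setaria viridis*. It was selected by its identifier, as 1 of 38239 genes listed in the files, and was among the 14293 genes that reached 10 counts in 4 or more libraries. Strain ME034 was used, and mid-leaf tissue of the fourth true leaf was sampled in 10 conditions with 4 biological replicates each, where a replicate pooled 2 cm segments of 2 plants. Plants of the high light groups (HL_1h, HL_2h and HL_4h) were moved to 900 μmol photons m-2 s-1 at 31 °C, and those of the high temperature groups (HT_1h, HT_2h and HT_4h) to 40 °C at 250 μmol photons m-2 s-1. Controls (ctrl_1h, ctrl_2h and ctrl_4h) stayed at 31 °C and 250 μmol photons m-2 s-1, and ctrl_0h was sampled before the treatments began. All groups were of the same strain and grew under the control condition until then. The controls of 1, 2 and 4 h serve both treatments, so that the high light and high temperature comparisons at a time point share their control libraries.

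PsbS lies in the thylakoid membrane and responds to the acidity of the lumen, the space inside the thylakoid. When light is in excess and the lumen turns acid, PsbS switches on qE, the rapid part of non-photochemical quenching (NPQ), in which the PSII antenna releases absorbed light energy as heat. The other main agent of qE is zeaxanthin, a carotenoid made from violaxanthin by violaxanthin de-epoxidase (VDE) and turned back by zeaxanthin epoxidase (ZEP). Acidification of the lumen depends in part on cyclic electron flow around photosystem I, which involves PGR5 and PGRL1. PsbS binds no chlorophyll firmly itself and acts on neighbouring antenna proteins, the trimeric LHCII and the minor antenna proteins CP29, CP26 and CP24, which are encoded by LHCb4, LHCb5 and LHCb6.

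Libraries were made from the 3′ ends of the mRNAs, so that a transcript gives reads in proportion to its number and not to its length. Levels are given as TPM, the name used for the deposited values, which are the counts of a gene scaled to the same total in every library. Total counts were between 1422507 and 4901131 per library (median 3694586), with the lowest median of a condition, 2454168, at ctrl_0h. PsbS had between 7607 and 63130 counts in a library, for which counting error alone is 1.15% and 0.398% of the value, and the spread between replicates was larger in every condition. The count table held 1 column whose header names high temperature but whose values are those of the HL_1h library D, the HL_1h library with the most PsbS. This column was left out, so that tests on counts used 3 libraries at HL_1h whereas TPM levels used 4. The transcripts taken as markers of both leaf cell types, 4 of 4 for mesophyll and 6 of 6 for bundle sheath, were above 0 in all libraries. Their levels were uneven. In CPM, counts scaled to a common library size, the mesophyll markers PPDK and CA averaged 10500 and 5590. The mesophyll markers NADP-MDH and PEPC_A averaged only 56 and 37.7 CPM. Summed mesophyll levels are therefore mostly those of PPDK and CA. Summed bundle sheath levels are mostly those of RBCS_A and NADP-ME, which averaged 5260 and 4790 CPM. In RNA of whole leaf segments, fewer cells of a type and less transcript per cell cannot be told apart.

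PsbS was among the most abundant transcripts of the leaf. In high light the 4 libraries had 10915, 13147, 11328 and 17002 TPM at HL_1h, 13130, 11690, 11012 and 15639 TPM at HL_2h, and 11759, 9973, 12016 and 8875 TPM at HL_4h. No high light library was below 8875 TPM, and of the 28 others only 1, ctrl_1h replicate D, was above it. In high temperature PsbS had 5447, 4765, 6342 and 7136 TPM at HT_1h, 6298, 6550, 6685 and 5074 TPM at HT_2h, and 2639, 2644, 2550 and 2534 TPM at HT_4h. The HT_4h libraries were nearly alike, with a coefficient of variation of 2.23%, against 10.8% to 27% in the other 9 conditions. Before treatment, at ctrl_0h, the controls had 6683, 7966, 6233 and 6260 TPM, and they reached 7046, 8667, 6129 and 11212 TPM at ctrl_1h, 5338, 4673, 4089 and 4772 TPM at ctrl_2h and 1962, 2553, 2033 and 2706 TPM at ctrl_4h. The libraries of ctrl_4h were thus below all other controls, and ctrl_1h was the most scattered condition for its level, with replicate D far above the others.

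**Figure D1:**
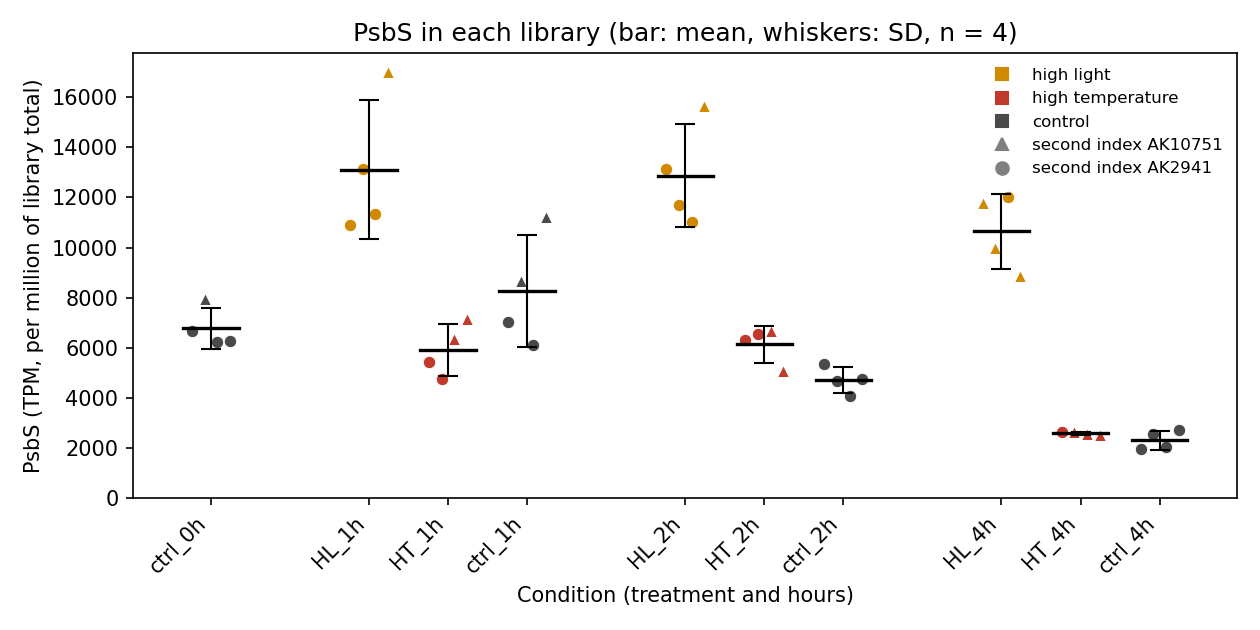
Level of PsbS (TPM, vertical axis) in each of the 40 libraries, by treatment and time; bars are means and whiskers the SD of 4 libraries, colours give the treatment and the symbol the second sequencing index. All 12 high light libraries lie at 8875 TPM or above, and the control means are 8264, 4718 and 2314 TPM at 1, 2 and 4 h.

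Ordered by mean, the 10 conditions ran from ctrl_4h (2314 ± 371 TPM) over HT_4h (2592 ± 57.8), ctrl_2h (4718 ± 512), HT_1h (5923 ± 1035), HT_2h (6152 ± 736), ctrl_0h (6786 ± 814), ctrl_1h (8264 ± 2228) and HL_4h (10656 ± 1495) to HL_2h (12868 ± 2048) and HL_1h (13098 ± 2777; SD, n = 4 each). Of the 9 neighbours in this order, a single pair had ranges that did not overlap, namely ctrl_2h, with a lowest value of 4089 TPM, above HT_4h, with a highest value of 2644 TPM. The order within the other 8 pairs is therefore not set beyond the spread of the replicates. By rank among all genes, the mean of PsbS was 4th at HL_1h, 3rd at HL_2h and 6th at HL_4h, against 33rd at ctrl_0h and 60th at ctrl_4h. In the library with the most PsbS, HL_1h replicate D, 1.70% of all counts were from this gene.

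The first question was how high light changed the transcript relative to leaves sampled at the same time from control plants. PsbS was 1.39-fold higher at HL_1h than at ctrl_1h (log2 fold change 0.48, SE 0.21, 95% interval 0.04 to 0.91), which did not pass the test across all genes (edgeR quasi-likelihood test, Benjamini-Hochberg adjusted p = 0.122). In this comparison 18.4% of the 14293 genes tested passed. The TPM ranges overlapped at 1 h, because the lowest library of HL_1h, at 10915 TPM, was below ctrl_1h replicate D, at 11212 TPM. At 2 h PsbS was 2.53-fold higher in high light (log2 fold change 1.34, SE 0.20, adjusted p = 2.67e-06), and at 4 h 3.72-fold higher (1.90, SE 0.21, adjusted p = 4.03e-09). At both times the lowest high light library was above the highest control library. Among all genes, 30.4% passed at 2 h and 26.1% at 4 h, and the share with ranges that did not overlap was 32.2% at 2 h and 28.9% at 4 h. PsbS had a higher log2 fold change than 92.6% of the genes tested at 2 h and than 96.8% at 4 h. At 4 h the summed mesophyll markers overlapped, with 10004 to 12218 TPM at HL_4h, against 8821 to 11163 TPM at ctrl_4h, whereas the summed bundle sheath markers did not, with 6621 to 9477 TPM at HL_4h, against 9841 to 12592 TPM at ctrl_4h. The part of these marker levels in the PsbS difference was not tested.

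The 1 h value turned on few libraries. Replicate D of HL_1h, left out of the counts, was the only library of that group with second index AK10751. At ctrl_1h 2 libraries carried this index. With the index as a term in a fit of estimated reads, replicate D included, the log2 fold change was 0.70 and passed (edgeR adjusted p = 0.00935). The part of the index in the 1 h value was not tested. With the estimated reads of all 40 files, which include HL_1h replicate D, the log2 fold change at 1 h was 0.64 and passed (edgeR adjusted p = 0.0225), and without ctrl_1h replicate D it was 0.73 (adjusted p = 0.0108). Over the 18 alternatives computed for this comparison it was between 0.33 and 0.86, and it passed in 8 of them. The values of 2 and 4 h passed under all 19 alternatives, with log2 fold changes of 1.21 to 1.45 and of 1.75 to 2.21. On the TPM scale the ratios of the means were 1.59, 2.73 and 4.61 at 1, 2 and 4 h. An exact two-sided permutation test of the TPM of 4 against 4 libraries gave p = 0.0571, 0.0286 and 0.0286, where 0.0286 is the smallest value this design allows (0.0857, 0.0643 and 0.0643 after Benjamini-Hochberg adjustment over the 9 such tests, none of which came below 0.05).

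In high temperature PsbS passed against the control at no time. The level was 0.72 times that of ctrl_1h at HT_1h (log2 fold change -0.47, SE 0.20, edgeR adjusted p = 0.132), 1.36 times that of ctrl_2h at HT_2h (0.44, SE 0.20, adjusted p = 0.16) and 1.04 times that of ctrl_4h at HT_4h (0.06, SE 0.20, adjusted p = 0.885). Among all genes 10.5%, 10.8% and 9.82% passed at 1, 2 and 4 h, and the TPM ranges of PsbS overlapped at each time. The 95% intervals of the log2 fold change were -0.88 to -0.07 at 1 h, 0.04 to 0.85 at 2 h and -0.34 to 0.47 at 4 h, so that differences of the size seen in high light at 2 and 4 h lay outside them. The exact two-sided permutation p of the TPM was 0.143, 0.0571 and 0.343 at 1, 2 and 4 h. Without HT_2h replicate D, the lowest library of that group at 5074 TPM, the value at 2 h was 0.59 and passed narrowly (edgeR adjusted p = 0.0485), as it did among AK2941 libraries alone (0.52, adjusted p = 0.0363), and the value at 1 h passed on library totals (-0.48, adjusted p = 0.0403). Without ctrl_1h replicate D the value at 1 h was -0.19 (adjusted p = 0.632).

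**Figure D2:**
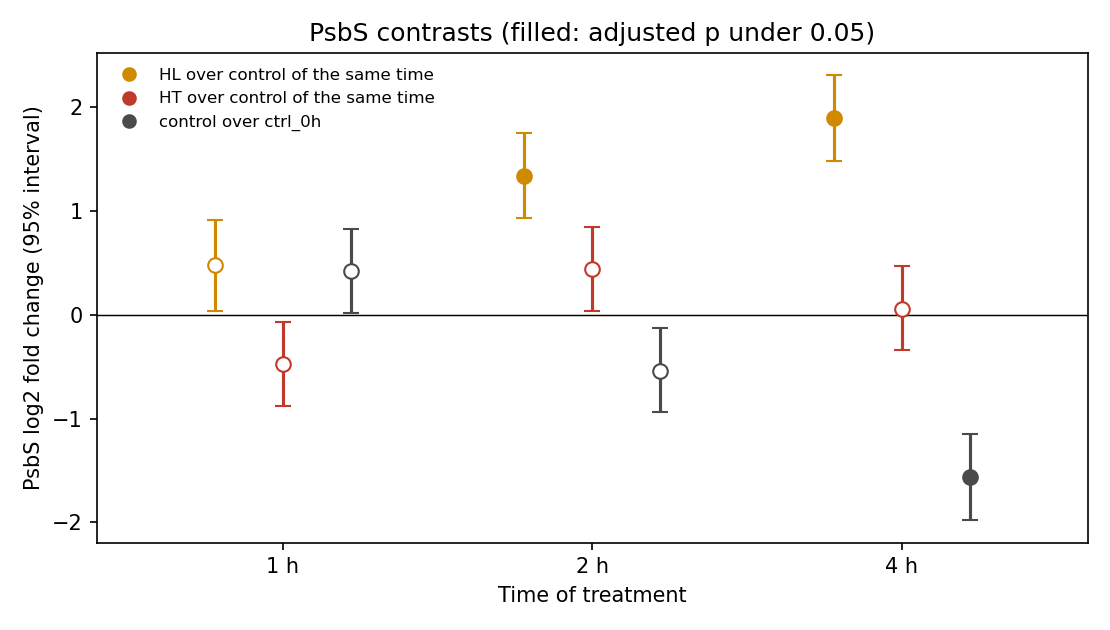
Log2 fold change of PsbS (vertical axis, edgeR) with its 95% interval at 1, 2 and 4 h for high light and high temperature over the control of the same time and for each later control over ctrl_0h; filled symbols passed at an adjusted p under 0.05. High light had 0.48, 1.34 and 1.90, high temperature -0.47, 0.44 and 0.06, and the controls 0.42, -0.54 and -1.56.

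Set against each other, high light gave more PsbS than high temperature at each time. The difference was 1.94-fold at 1 h (log2 0.95, SE 0.21, edgeR adjusted p = 0.000688), 1.86-fold at 2 h (0.89, SE 0.20, adjusted p = 0.000456) and 3.57-fold at 4 h (1.83, SE 0.21, adjusted p = 5.52e-09). The lowest high light library lay above the highest high temperature library at 1, 2 and 4 h. Between these treatments 27%, 40.4% and 35.7% of all genes passed at 1, 2 and 4 h, and the ranges of 25.6%, 34.1% and 33.8% of genes did not overlap. These 3 calls held under every alternative computed.

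Leaves that were never treated also changed. PsbS at ctrl_1h was 1.34 times that of ctrl_0h (log2 0.42, SE 0.20, edgeR adjusted p = 0.211), a difference that did not pass and was 0.14 without ctrl_1h replicate D. At ctrl_2h it was 0.689 times that of ctrl_0h (-0.54, SE 0.20, adjusted p = 0.0888), and although the TPM ranges of these groups did not overlap, the call depended on the fit and passed in 6 of 20 alternatives. By ctrl_4h PsbS had fallen 2.95-fold below ctrl_0h (log2 -1.56, SE 0.20, 95% interval -1.98 to -1.15, adjusted p = 1.12e-07), and all 20 alternatives gave between -1.66 and -1.51 and passed. The percentages of all genes that passed against ctrl_0h were 6%, 8.58% and 37.4% at 1, 2 and 4 h. Ranges that did not overlap were found for 15.7% of genes at 2 h and for 33.7% at 4 h, and PsbS at 4 h was lower, relative to ctrl_0h, than 94.7% of the genes tested.

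The fall within the controls took place in both later intervals. From one sampling to the next, PsbS at ctrl_2h was 1.95-fold below ctrl_1h (log2 -0.96, SE 0.20, edgeR adjusted p = 0.00237; 6.32% of genes passed) and at ctrl_4h 2.03-fold below ctrl_2h (-1.02, SE 0.20, adjusted p = 0.000325; 17.5% passed). The first of these intervals was -0.54 and did not pass among libraries with second index AK2941 (adjusted p = 0.0765). Markers of the mesophyll were also lower at ctrl_4h than at ctrl_0h, but not interval by interval. Their summed level was 19846 to 26275 TPM at ctrl_0h, 10636 to 18793 TPM at ctrl_1h, 15728 to 17093 TPM at ctrl_2h and 8821 to 11163 TPM at ctrl_4h. At ctrl_4h 4 of 4 were lower than at ctrl_0h, where 17.6% of all genes were. The log2 fold changes were -1.26 for PPDK and -1.40 for CA, which make up most of the sum. They were -0.96 for NADP-MDH and -0.78 for PEPC_A, which are weakly expressed. Between ctrl_2h and ctrl_1h, where PsbS fell, 0 of 4 passed (median log2 0.06). At ctrl_1h 3 of 4 were lower than at ctrl_0h (median -0.64), as were 296 of the 14293 genes tested, and PsbS had 0.42. The summed bundle sheath markers were 9841 to 12592 TPM at ctrl_4h, against 12692 to 16612 TPM at ctrl_0h, with 3 of 6 lower. The part of these marker levels in the fall of PsbS was not tested.

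Relative to ctrl_0h, PsbS was higher at HL_1h and HL_2h and lower at HT_4h, and did not pass in the other treated groups. PsbS was 1.87-fold higher at HL_1h (log2 0.90, edgeR adjusted p = 0.00153) and 1.74-fold higher at HL_2h (0.80, adjusted p = 0.00165). At HL_4h it was 1.26 times the level of ctrl_0h and did not pass (0.33, SE 0.20, adjusted p = 0.173), although its 4 libraries were above all those of ctrl_0h in TPM, where the ranges of 40.8% of genes did not overlap. It passed in 4 of 20 alternatives, among them library totals (0.65), and was 0.16 without HL_4h replicate A and 0.14 without HL_4h replicate C. HT_1h and HT_2h had 0.965 and 0.936 times the level of ctrl_0h and did not pass (edgeR adjusted p = 0.917 and 0.802). HT_4h was 2.83-fold lower (log2 -1.50, edgeR adjusted p = 3.1e-07), and the untreated ctrl_4h was lower by a like amount (-1.56). Against ctrl_0h, the genes that passed were 24.9%, 37% and 46.6% of those tested at HL_1h, HL_2h and HL_4h, and 8.54%, 16.1% and 30.9% at HT_1h, HT_2h and HT_4h. Time of day and treatment change together in these comparisons and cannot be told apart.

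The difference between high light and control grew with time while the level in high light did not. The log2 fold change over the control was 1.42 larger at 4 h than at 1 h (SE 0.30, 95% interval 0.81 to 2.02, edgeR adjusted p = 0.00342; 4.32% of genes passed), and it passed under 25 of 26 alternatives, the exception being a fit of only the groups compared (adjusted p = 0.0538). With the second index as a term in a fit of estimated reads this change was 1.06 (edgeR adjusted p = 0.0369). The steps of 0.86 between 1 and 2 h (adjusted p = 0.128; 1.76% of genes passed) and 0.56 between 2 and 4 h (adjusted p = 0.591; 0.084% passed) did not pass on their own. Within high light, PsbS at HL_4h was 1.48-fold lower than at HL_1h (log2 -0.57, SE 0.21, adjusted p = 0.0367; 34.1% of genes passed), with TPM ranges that overlapped. This call was lost in 9 of 18 alternatives, among them those without HL_1h replicate A (-0.59) or B (-0.55) and without HL_4h replicate B (-0.52) or D (-0.53). Over the same hours the controls fell 3.96-fold (ctrl_4h against ctrl_1h, log2 -1.99, SE 0.21, adjusted p = 1.54e-09; 26% passed) and the high temperature leaves 2.73-fold (HT_4h against HT_1h, -1.45, SE 0.20, adjusted p = 5.34e-07; 31.3% passed). The high temperature effect at 4 h exceeded that at 1 h by 0.54 on the log2 scale, which did not pass (SE 0.28, adjusted p = 0.289; 5.03% of genes passed) and was 0.29 without ctrl_1h replicate D. The comparisons of 4 h with 1 h within a treatment were chosen after their values were seen.

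Scaling matters for levels late in high light. With library totals as the only scaling, as in TPM, the median log2 fold change of all genes was 0.38 at HL_4h against ctrl_4h and 0.41 at HL_4h against ctrl_0h, whereas the TMM factors of edgeR brought it to 0.06 in both. PsbS had log2 fold changes of 2.20 and 0.65 on library totals, against 1.90 and 0.33 with TMM, so that the excess over the median gene was nearly the same. Of the genes called in all, those that were higher made up 80.5% on library totals and 51.8% with TMM at HL_4h against ctrl_4h, 64.4% and 54.4% at HL_2h against ctrl_2h, and 56.5% and 42.9% at HT_4h against ctrl_4h.

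A ratio of genes within a library does not depend on the scaling, and PsbS was therefore also set against the summed TPM of the minor antenna genes LHCb4, LHCb5 and LHCb6. At HL_1h the ratio was 0.457, 0.844, 0.593 and 0.741, against 0.261, 0.28, 0.237 and 0.366 at ctrl_1h. At HL_2h it was 0.68, 0.693, 0.704 and 0.722, against 0.204, 0.172, 0.146 and 0.183 at ctrl_2h. At HL_4h it was 0.454, 0.527, 0.498 and 0.422, against 0.0702, 0.0772, 0.0597 and 0.0856 at ctrl_4h. High light libraries were above all control libraries of the same time in this ratio, at 1 h too, where the PsbS level alone overlapped. The summed genes were themselves lower on average in high light. At HL_1h LHCb4, LHCb5 and LHCb6 averaged 8043, 7675 and 4658 TPM, against 11411, 9467 and 7733 TPM at ctrl_1h. The part of this sum in the separation was not tested, nor was the share of all genes with such a separation. Before treatment the ratio was between 0.266 and 0.288, a narrower spread than at 1 h in either light. Replicates C and D of ctrl_0h, both at 0.266, were however the closest pair of libraries within a condition. The spread at ctrl_0h may therefore be that of fewer than 4 separate samples, which was not tested. In high temperature the mean was 0.236 at HT_1h, 0.204 at HT_2h and 0.0856 at HT_4h, against 0.286 at ctrl_1h, 0.176 at ctrl_2h and 0.0732 at ctrl_4h, and the ranges overlapped with those of the controls at each time.

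**Figure D3:**
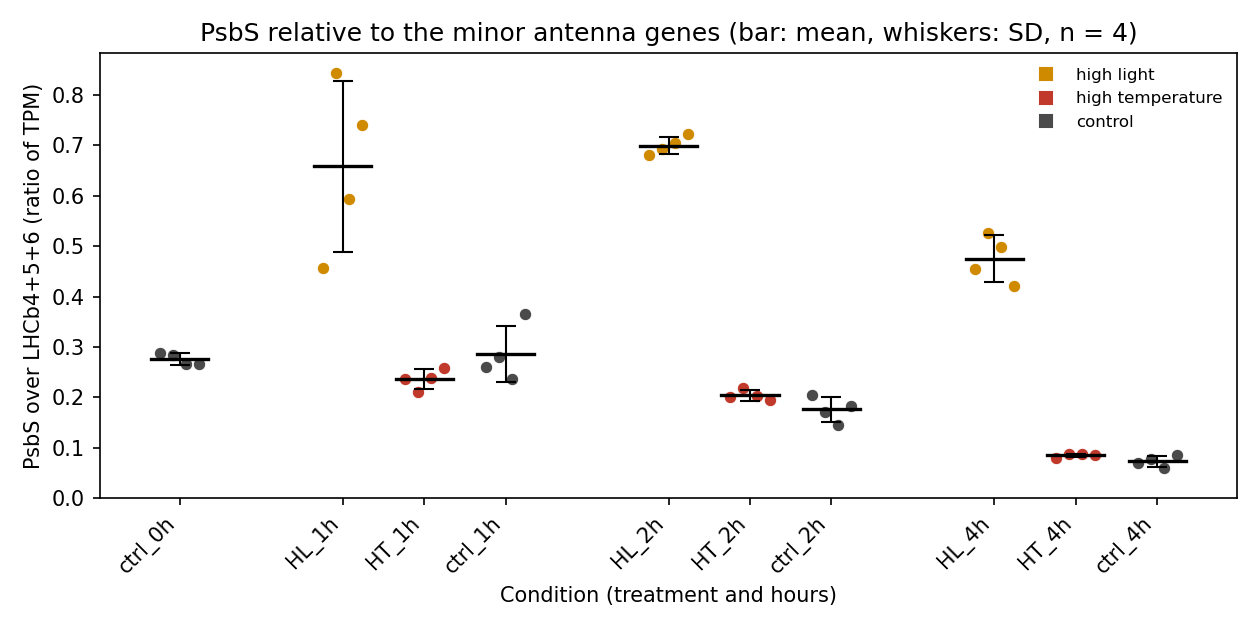
PsbS divided by the summed level of LHCb4, LHCb5 and LHCb6 (ratio of TPM, vertical axis) in each library by condition; bars are means and whiskers the SD of 4 libraries. The means are 0.659, 0.7 and 0.476 in high light, 0.236, 0.204 and 0.0856 in high temperature and 0.286, 0.176 and 0.0732 in the controls at 1, 2 and 4 h, with 0.276 at ctrl_0h.

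Libraries carried 2 second sequencing indices, AK10751 in 15 and AK2941 in 25, that were unevenly spread over the conditions. All libraries of ctrl_2h and ctrl_4h had AK2941, and 3 of 4 at HL_4h and at HT_4h had AK10751. Within a condition, mean PsbS of AK10751 libraries was 1.25 to 1.51 times that of AK2941 libraries at ctrl_0h, ctrl_1h, HL_1h, HL_2h and HT_1h, with no overlap. It was 0.849 to 0.976 times at HL_4h, HT_2h and HT_4h. AK10751 and AK2941 stood at 1 against 3 libraries at ctrl_0h, HL_1h and HL_2h and 2 against 2 at ctrl_1h and HT_1h. Groups this small often fail to overlap by chance, and the share of all genes that did so was not computed. With the index as a term in the fit of estimated reads, AK10751 libraries had 1.15 times the PsbS of AK2941 libraries (log2 0.20, SE 0.10, edgeR adjusted p = 0.274), while 6.89% of 14302 genes passed for the index. Among AK2941 libraries alone, PsbS at HL_4h exceeded ctrl_4h by 2.16 on the log2 scale (adjusted p = 3.67e-08), at HL_2h it exceeded ctrl_2h by 1.21 (adjusted p = 9.1e-07) and at HL_1h ctrl_1h by 0.86 (adjusted p = 0.00132), and ctrl_4h against ctrl_0h had -1.52 (adjusted p = 1.33e-08). A single library stands for HL_4h there, and its variance is taken to be that of the other groups.

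Genes listed with PsbS for NPQ went both ways in high light at 1 h. At 2 and 4 h those that passed were lower, except LHCb7. Of 10 such genes 9 were tested, ZEP2 having at most 3 reads in a library. In high light 3, 1 and 1 of the 9 were higher and 1, 4 and 5 lower at 1, 2 and 4 h, with medians of -0.09, -0.35 and -0.39 against -0.00, 0.02 and 0.06 for all genes. Among all genes 9.29%, 16.5% and 13.5% were higher and 9.08%, 13.9% and 12.6% lower at these times. In high temperature 2, 1 and 2 were higher and none lower, with medians of 0.12, 0.26 and -0.03, while 5.07%, 5.38% and 4.22% of all genes were higher and 5.41%, 5.37% and 5.6% lower. Between ctrl_4h and ctrl_0h 1 was higher and 2 lower, against 19.7% higher and 17.6% lower of all genes.

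Of the enzymes of the xanthophyll cycle, VDE was weakly expressed and passed in no treatment comparison with its control. It had 30.8, 39.2, 24.1 and 39.1 TPM at HL_4h, against 15.7, 14.5, 18.8 and 13.7 TPM at ctrl_4h. These ranges did not overlap, as was so for 28.9% of all genes. The log2 fold change of 0.75 missed the threshold (SE 0.32, edgeR adjusted p = 0.0839). It passed in 2 of 19 alternatives, a fit of only these groups (0.72) and library totals (1.09). On library totals, as in TPM, the median of all genes was 0.38. The values at HL_1h and ctrl_1h overlapped, with ctrl_1h replicate D, the control library with the most PsbS, at 0.77 TPM of VDE. ZEP1/ABA1 rose in both treatments at 1 h. It averaged 311 ± 37 TPM at HL_1h and 345 ± 10.7 TPM at HT_1h, against 173 ± 37.8 TPM at ctrl_1h (SD, n = 4 each), with log2 fold changes of 0.82 in high light (adjusted p = 2.17e-05) and 1.03 in high temperature (adjusted p = 3.01e-07). At 4 h it had -0.18 in high light and -0.13 in high temperature, and neither passed.

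The minor antenna genes were lower in high light wherever they passed. LHCb4 (CP29) had -0.53 at 1 h, which did not pass, and fell at 2 h (log2 fold change -0.82, edgeR adjusted p = 0.000464) and 4 h (-0.88, adjusted p = 0.000267). LHCb6 (CP24) fell at 1, 2 and 4 h (-0.96, -0.65 and -0.76, adjusted p = 0.00575, 0.0285 and 0.013), and LHCb5 (CP26) at 4 h (-0.73, adjusted p = 0.00273), with -0.33 and -0.47 at 1 and 2 h that did not pass. The LHCb6 call was lost at 1 h without HL_1h replicate B (-0.71), at 2 h without ctrl_2h replicate C or HL_2h replicate A, B or C (-0.65 to -0.56), and at 4 h without ctrl_4h replicate C (-0.67) and on library totals (-0.44, adjusted p = 0.0863). The LHCb4 and LHCb5 calls at 4 h were lost among AK2941 libraries alone (-0.61 and -0.42). Between ctrl_4h and ctrl_0h, where PsbS fell, LHCb4 had 0.50 (adjusted p = 0.0254), a call lost without any 1 of the ctrl_0h libraries or ctrl_4h replicate B or C (0.40 to 0.49), and LHCb5 and LHCb6 had 0.32 and 0.18 and did not pass (adjusted p = 0.171 and 0.564). In high temperature none of the 3 passed at any time.

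LHCb7, a weakly expressed relative of the antenna proteins, rose in high light over the controls of the same time and fell between ctrl_0h and ctrl_4h, at a level far below that of PsbS. It averaged 59.2, 58.7 and 47.6 TPM in high light, against 37.7, 30.7 and 21.3 TPM in the controls of 1, 2 and 4 h, and 55.2 TPM at ctrl_0h. Log2 fold changes in high light were 0.62, 0.82 and 0.85 (edgeR adjusted p = 0.00385, 4.03e-05 and 4.03e-05), and ctrl_4h was lower than ctrl_0h by -1.39 (adjusted p = 3.51e-09). At HL_4h it was lower than at ctrl_0h (-0.54, adjusted p = 0.00306), where PsbS had 0.33, and it had -0.43 at ctrl_1h against ctrl_0h and 0.30 at HT_1h against ctrl_1h, neither of which passed, where PsbS had 0.42 and -0.47. LHCb7 also passed at HT_2h, with 0.77 over ctrl_2h (adjusted p = 0.000558); whether the 2 genes differ in any of these comparisons was not tested.

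Of the genes of cyclic electron flow, PGR5 rose at HL_1h (log2 fold change 0.47, edgeR adjusted p = 0.0144) and HT_4h (0.40, adjusted p = 0.045), and fell at ctrl_4h relative to ctrl_0h (-1.07, adjusted p = 4.3e-08). The rise at HL_1h was lost in 4 of 18 alternatives, among them that without a HL_1h column of no replicate letter (0.45), and the rise at HT_4h in 8 of 19, among them those without ctrl_4h replicate A, B or D or HT_4h replicate A or B (0.29 to 0.43), whereas the fall held in all 20. PGRL1_A rose at HT_1h and HT_4h (0.44 and 0.48, adjusted p = 0.0223 and 0.0142) and was lower at HL_2h and HL_4h (-0.35 and -0.39, adjusted p = 0.038 and 0.0226), and the value at HL_4h was -0.07 on library totals. Its calls were lost without ctrl_1h replicate D (0.36) or a HT_1h column of no replicate letter (0.39) at HT_1h, without ctrl_4h replicate B at HT_4h (0.45), without ctrl_2h replicate C or D or HL_2h replicate B or C at HL_2h (-0.34 to -0.31), and without ctrl_4h replicate C or HL_4h replicate C at HL_4h (-0.34 and -0.35). PGRL1-B fell at HL_2h (-0.46, adjusted p = 0.0069) and HL_4h (-0.82, adjusted p = 8.91e-06) under all 19 alternatives, and passed at no time in high temperature.

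**Figure D4:**
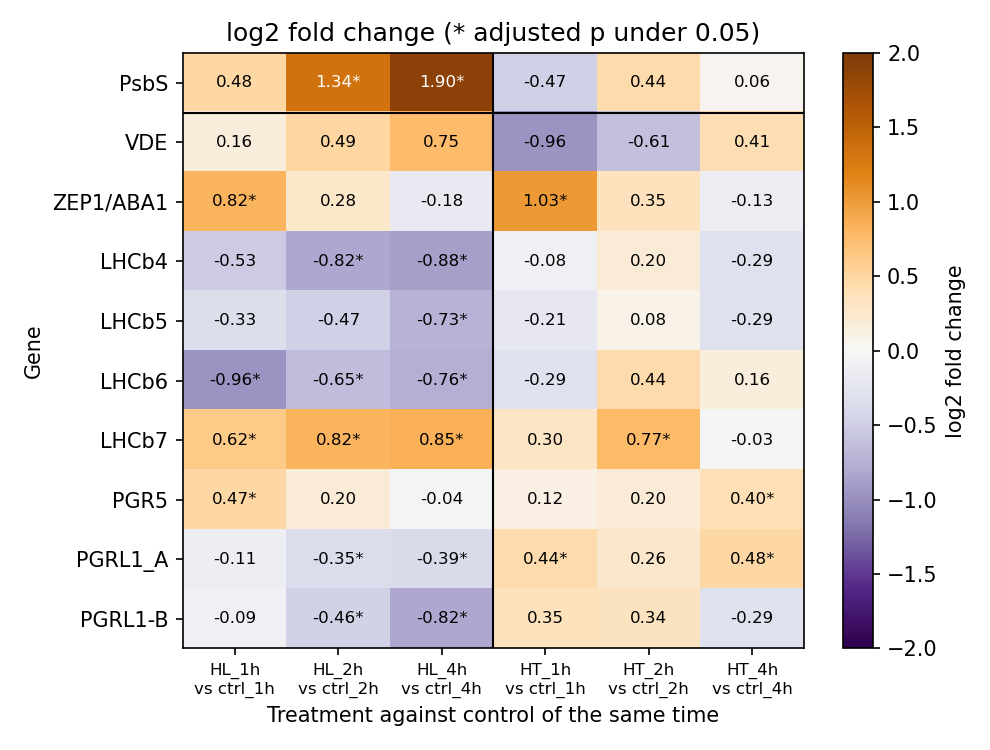
Log2 fold change (edgeR, colour and number) of PsbS and 9 genes of NPQ, the minor antenna and cyclic electron flow in high light and high temperature over the control of the same time; asterisks mark an adjusted p under 0.05. PsbS has 1.34 and 1.90 at HL_2h and HL_4h, where LHCb4 has -0.82 and -0.88.

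Among other genes of PSII and its protection, those of photoprotection were mostly higher in high light. This list has 15 members, VDE and ZEP among them, and 11 were tested. In high light 8, 7 and 8 of these were higher at 1, 2 and 4 h, where 9.29%, 16.5% and 13.5% of all genes were, and none was lower, with medians of 1.21, 0.85 and 0.80. At ctrl_4h 6 were lower than at ctrl_0h, against 17.6% of all genes, and none higher, with a median of -0.94. In high temperature 2, 1 and 1 were higher, against 5.07%, 5.38% and 4.22% of all genes, and 1, 0 and 0 lower, against 5.41%, 5.37% and 5.6%. SEP1 (Sevir.8G209900), a stress-enhanced relative of the antenna proteins, averaged 2652, 3218 and 2123 TPM in high light, against 906, 713 and 498 TPM in the controls of 1, 2 and 4 h and 1148 TPM at ctrl_0h (log2 fold changes 1.35, 2.06 and 1.78 in high light, edgeR adjusted p = 1.91e-07, 3.59e-12 and 1.8e-10, and -1.23 at ctrl_4h against ctrl_0h, adjusted p = 2.16e-07). ELIP_B (Sevir.2G057800), an early light-induced protein, averaged 1728, 1442 and 1865 TPM in high light, against 2.34, 1.79 and 1.91 TPM in the controls. ELIP_A and ELIP_D carry neighbouring identifiers and are of the same family, and how reads were divided among these genes is uncertain.

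LHCII genes and subunits of PSII were mostly lower in high light at 2 and 4 h, but not at 1 h. Of 9 antenna genes of PSII, which include LHCb4 to LHCb7, 1, 1 and 1 were higher and 1, 5 and 8 lower at 1, 2 and 4 h, the higher one being LHCb7 each time. Of all genes 9.08%, 13.9% and 12.6% were lower at these times, so that the share at 1 h was near that of all genes. At ctrl_4h 5 of the 9 were higher and 1 lower than at ctrl_0h, against 19.7% and 17.6% of all genes. The most abundant, LHCb1/2/3 (Sevir.2G310200), averaged 26922 TPM at HL_4h, against 33466 TPM at ctrl_4h (log2 fold change -0.61, edgeR adjusted p = 0.0245), a call lost in 10 of 19 alternatives, among them those without ctrl_4h replicate B, C or D or HL_4h replicate B or D (-0.59 to -0.47). Of 9 tested subunits of the PSII complex out of 12, 1, 7 and 8 were lower in high light at 1, 2 and 4 h, against the same 9.08%, 13.9% and 12.6% of all genes, and none higher, where the share at 1 h was again near that of all genes. None passed in high temperature at any time or between ctrl_4h and ctrl_0h. PsbP, of the oxygen-evolving complex, had log2 fold changes of -0.62, -0.67 and -1.18 (adjusted p = 0.0209, 0.0041 and 4.29e-06), of which the first was lost in 6 of 18 alternatives, at -0.37 without ctrl_1h replicate D, -0.60 without HL_1h replicate B and -0.59 without the HL_1h column of no replicate letter. PsbR (Sevir.6G029700) had -0.02, -0.60 and -0.91, of which the last 2 passed (adjusted p = 0.000267 and 4.62e-07).

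To find transcripts with a like course, PsbS was correlated with each of 974 genes of at least 100 CPM over the 10 condition means of log2 CPM. These means share controls, libraries and scaling, so that Pearson's r is given as a description. Of these genes 27 had an r over 0.9, 84 over 0.8 and 396 below 0, with a median of 0.20. The 5 highest were HCF136 (Sevir.4G302000, r = 0.958), named for an assembly factor of PSII, ASN2 (Sevir.9G444800, 0.956), for an asparagine synthetase, an SVR3-related gene for an elongation factor (Sevir.1G125900, 0.951), SPS1 (Sevir.3G310000, 0.950), for a solanesyl diphosphate synthase, and PSY (Sevir.3G415800, 0.947), for phytoene synthase, the entry step of carotenoid synthesis. Their amplitudes differed from that of PsbS. PSY averaged 693, 564 and 205 TPM in high light, against 133, 114 and 26.5 TPM in the controls of 1, 2 and 4 h. HCF136 changed less, with 396, 419 and 420 TPM in high light, against 262, 222 and 191 TPM in the controls.

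The 3 lowest were Sevir.9G434100 (r = -0.921), CCL (Sevir.5G066700, -0.912) and GRF7 (Sevir.1G213300, -0.875), which is named for a 14-3-3 protein. CCL averaged 265, 131 and 516 TPM in high light, against 724, 1245 and 3224 TPM in the controls of 1, 2 and 4 h, and 710 TPM at ctrl_0h. Which genes head the list depended on the measure, since 1 of the 5 highest and 2 of the 3 lowest were also found by Spearman's rho, and 4 of the 5 and 1 of the 3 with TPM of the 40 files.

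**Figure D5:**
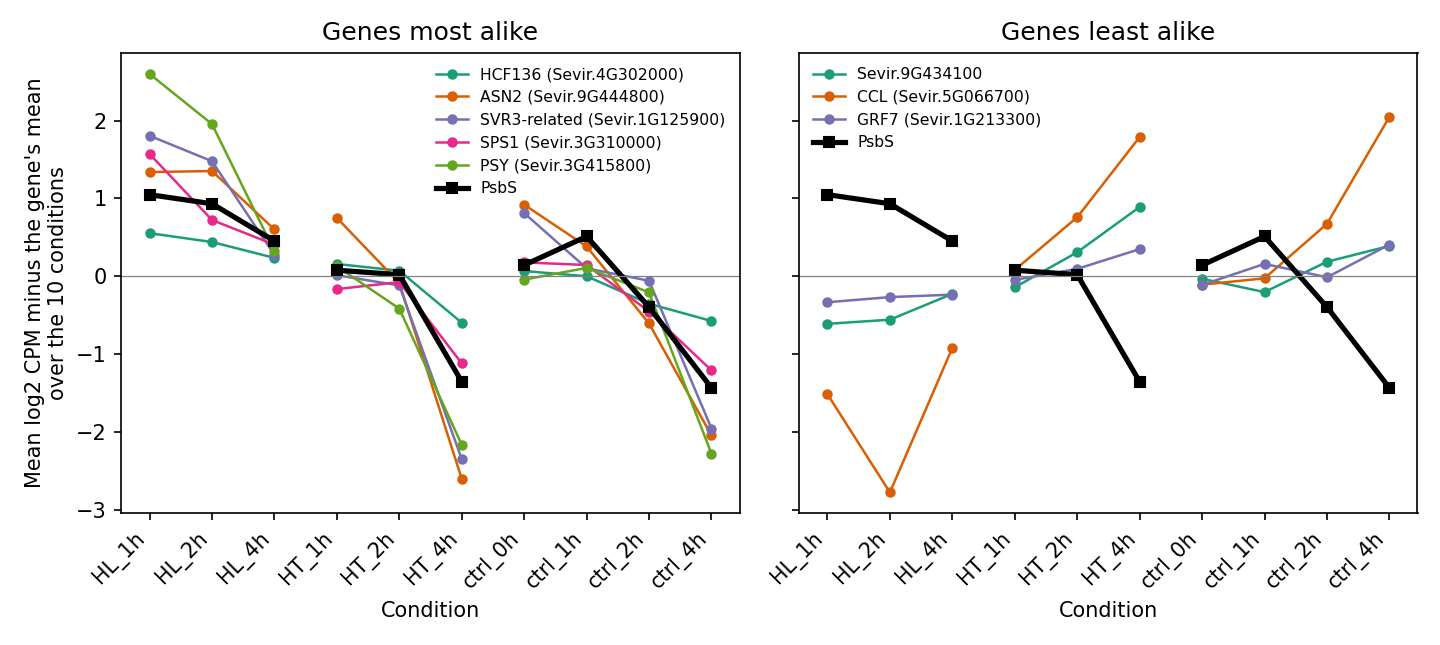
Mean log2 CPM in each of the 10 conditions, less the mean of the gene over these, for PsbS (black squares) and the 5 genes with the highest (left) and 3 with the lowest correlation with it (right). PSY, at 693 TPM at HL_1h and 26.5 TPM at ctrl_4h, spans a wider range than PsbS, at 13098 and 2314 TPM.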

How the data were processed

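RNA of 40 leaf libraries was analysed. According to the deposited notes and the methods, the authors trimmed reads with Trim Galore 0.6.2 and estimated transcript abundances with Salmon 1.1.0 from QuantSeq 3′ libraries; the version 2 transcripts of *S. viridis* were the reference. The deposited table holds counts per gene, rounded by the authors. The deposited files named TPM hold CPM by their values, counts scaled to 1 library total with no gene length. Reads estimated from these files were whole within 0.05 for 95.3 to 96.6% of values, and columns were matched to files by value. Of 40 count columns 1 was not used, because header and values name different treatments, and 4 were used for their condition only. The authors' own fold changes were not used.

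The 14293 genes that had 10 or more counts in 4 or more libraries were fitted in 1 model with a term per condition in edgeR 4.0.16 (R 4.3.3; TMM factors, glmQLFit, glmQLFTest), with Benjamini-Hochberg adjustment within each contrast and a threshold of 0.05. TPM of 4 against 4 libraries were compared by exact permutation (scipy 1.17.1). The script was tested on simulated counts. Alternatives were other scaling, no filter, estimated reads of all 40 files with and without a replicate block, fits of only the groups compared, the second index, DESeq2 1.42.0, limma 3.58.1 on log2(TPM + 1) and log2(TPM + 0.1), and each library left out; those on the second index, on the merged ctrl_0h libraries and the comparisons of 4 h with 1 h were chosen after seeing the data. Named genes were PsbS, the tested genes of the NPQ list, the 2 members of highest mean CPM in the other lists, and the 5 most and 3 least alike among genes of at least 100 CPM. PsbS, the lists (from the curated genes of the study) and the tests were chosen with earlier results of these data known. Replicates are separate leaf samples by the methods. Counting errors cover the counting of reads only, as no molecular identifiers are named in the sources used here.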

Additional observations from a re-analysis of the deposited data

Results flagged for a closer look

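The change of the high light effect on PsbS between 1 and 4 h, 1.42 on the log2 scale (SE 0.30, edgeR adjusted p = 0.00342), passed the test of a difference between time points. The same test passed for 2 of the 9 tested partners of PsbS, in the opposite direction and in both treatments. Of all genes 4.32% passed in high light and 5.03% in high temperature. Both treatments were set against the same ctrl_1h and ctrl_4h libraries, so that their results are not independent. For ZEP1/ABA1 the effect at 4 h less that at 1 h was -1.0 in high light and -1.16 in high temperature. For PGRL1-B it was -0.73 in high light and -0.64 in high temperature. PGRL1-B averaged 751 and 1077 TPM at ctrl_1h and ctrl_4h. In high light it averaged 735 and 752 TPM at 1 and 4 h, and in high temperature 934 and 938 TPM. In HT_4h, the ratio of PsbS to the minor antenna genes was 0.0808 in replicate A, below the other 3 libraries at 0.0868 to 0.0874. The cut-off used flags such a gap by chance in about 1 in 20 groups. As the ratio was computed in 10 conditions, 1 flagged gap can be chance. The PsbS level of HT_4h replicate A, 2639 TPM, was within the range of the others.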

How the results depend on the processing

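Leaving out 1 library at a time gave 242 values for PsbS over 27 comparisons, of which 232 kept direction and call. The ranges of log2 fold change over left-out libraries were 0.33 to 0.73 for HL_1h, -0.60 to -0.19 for HT_1h and 0.36 to 0.59 for HT_2h against their controls, 0.14 to 0.55 for ctrl_1h and 0.14 to 0.35 for HL_4h against ctrl_0h, 0.29 to 0.69 for the change of the high temperature effect from 1 to 4 h, -0.71 to -0.52 for HL_4h against HL_1h (called in 3 of 7), and, around 0, -0.04 to 0.15 for HT_4h against ctrl_4h, -0.17 to 0.05 for HT_1h and -0.20 to 0.03 for HT_2h against ctrl_0h. Of 306 values under other alternatives 277 kept both. On library totals, calls were gained against ctrl_1h for HL_1h (0.51) and HT_1h (-0.48), and against ctrl_0h for ctrl_2h (-0.52) and HL_4h (0.65). A call was also gained there for the change of the high light effect from 1 to 2 h (0.93), and lost for HL_4h against HL_1h (-0.15). With only the groups compared, ctrl_2h against ctrl_0h passed (-0.54), and the change from 1 to 4 h (1.42) and HL_4h against HL_1h (-0.58) did not. With limma, at either pseudocount, HL_1h passed against ctrl_1h (0.68), and ctrl_2h (-0.52) and HL_4h (0.65) passed against ctrl_0h. HL_4h against HL_1h (-0.29) did not pass with limma. DESeq2 called ctrl_2h against ctrl_0h (-0.57). With the index as a term HL_1h passed against ctrl_1h (0.70), and HT_4h against ctrl_4h turned to -0.08. AK2941 libraries alone gave calls for HL_1h against ctrl_1h (0.86), HT_2h against ctrl_2h (0.52) and ctrl_2h against ctrl_0h (-0.48). They gave none for ctrl_2h against ctrl_1h (-0.54), and 0.04 for HT_2h against ctrl_0h. HL_4h, with 1 library there, had 0.64 against ctrl_0h and -0.29 against HL_1h. VDE at HL_1h was -0.10 with AK2941 alone and -0.29 to 0.43 over left-out libraries. These index fits used estimated reads, since the planned ones on count columns could not be fitted where columns have no replicate letter. The causes were not tested.

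Pairing of libraries by replicate letter was not found by the rule used, as every pair correlated over 0.1 in 0 of 23 comparisons. The 92 correlations were between -0.222 and 0.225, and 11 were over 0.1. The rule is strict, and weaker pairing was not tested. With the replicate block on the estimated reads, HL_1h against ctrl_1h was 0.64 (adjusted p = 0.0239), as without it (0.64), and no call of PsbS differed between these fits. The number of genes called moved by over 1.5 times in some alternatives, to 1342 against 2626 in the reported fit at HL_1h, to 450 and 819 against 1497 at HT_1h, to 1715 against 3727 at HL_4h and to 9, 901 and 2114 against 1404 at HT_4h, each against its control. It was 241 to 507 against 857 for ctrl_1h over ctrl_0h, 401 and 483 against 904 for ctrl_2h over ctrl_1h, 1711 against 5102 for HL_4h over HT_4h, 675 against 1220 and 2430 against 4420 for HT_1h and HT_4h over ctrl_0h, and 2805 against 4878 and 1995 against 4469 for 4 h over 1 h in high light and high temperature. For changes of the high light effect it was 113 to 433 against 251 (1 to 2 h), 2 to 63 against 12 (2 to 4 h) and 139 to 1049 against 618 (1 to 4 h), and for that of high temperature 25 and 424 against 719. The lowest counts came from AK2941 libraries alone, with fewer samples, or from fits of only the groups compared. Depth limits VDE and LHCb7 more than PsbS.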

Other observations

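The closest pair of libraries was ctrl_0h replicates C and D, whose counts differed by a chi-square of 1.31 per degree of freedom over 5196 genes, against 4.41 for the next pair, HT_1h replicates A and B. They were kept as separate libraries, and whether they stem from the same leaf sample was not tested. Summed as 1 library they left PsbS at ctrl_4h at -1.61 on the log2 scale relative to ctrl_0h (edgeR adjusted p = 3.54e-07).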
